A study of Rattus norvegicus with 16 samples.

Results

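Explants of the stria vascularis that had passed through hypoxia were compared with explants kept in normoxia, on 4 of the 16 arrays of a study of the newborn rat cochlea. The arrays were chosen by their titles, which gave 2 hypoxic and 2 normoxic cultures of this tissue, numbered as repeats 1 and 2. Each array held total RNA pooled from 12 cochleae. All 4 cultures were kept for 24 h in the same serum-containing medium, to which insulin and transferrin had been added, so that these agents were shared by both groups. The hypoxic explants spent 5 h in hypoxia (oxygen pressure 10 to 20 mmHg), starting 3 h after they were plated, and were then returned to normoxia for 16 h before the RNA was taken. The comparison therefore describes the tissue after recovery and not at the end of the hypoxic period. The normoxic explants served as its control, and the same pair of conditions was available for the organ of Corti and the modiolus. A single array of native stria vascularis, taken without hypoxia, gave a level before culture, although its treatment note also spoke of 24 h of cultivation while its title and description called it fresh. The labels do not say that the repeats came from separate litters or cultures, so that p-values measure the spread between these arrays, which may be technical.

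The stria vascularis is the vascularised epithelium of the lateral cochlear wall that secretes potassium into the endolymph and generates the endocochlear potential. Its marginal cells release potassium through the channel formed by Kcnq1 and Kcne1, supplied by Na,K-ATPase and by the cotransporter Slc12a2, while intermediate cells of melanocyte origin and a dense capillary bed support this transport. The tissue has a high oxygen demand. In cells short of oxygen the factor Hif1a is stabilised and activates genes of glucose uptake, glycolysis, iron handling and heme breakdown. Reoxygenation and tissue injury also engage NF-kappaB, which drives cytokine and chemokine genes, and Nfe2l2, which drives glutathione transferases and other antioxidant enzymes.

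Before results are given, the arrays themselves are described. Their median signals were 647 and 555 in the hypoxic explants and 662 and 625 in the normoxic explants, after the authors had scaled every array to one mean. The background of an array was taken as the 95th percentile of 23 controls for sequences of other species, mouse genes among them. It was 596 and 313 in the hypoxic explants, against 357 and 411 in the normoxic explants. The first hypoxic array thus had the highest background, and 51.3% of its probe sets lay above it, against 60.7% to 63.7% on the other 3 arrays. The ratio of 3′ to 5′ probe sets of Gapdh, a measure of RNA integrity, was 1.39 and 1.20 in the hypoxic explants and 1.26 and 1.22 in the normoxic explants. Both arrays of a repeat had been scanned on the same day. The native array had a Gapdh ratio of 3.84 and a scan day of its own, and its levels are given for orientation only. Arrays correlated across probe sets at r = 0.937 within the hypoxic pair, at 0.946 within the normoxic pair, and at 0.930 to 0.956 between the groups, so that the groups were no further apart than the arrays within them. With 2 arrays a group, precision is limited by their number.

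Some strial genes, though not all, set the tissue apart from the other regions. Kcne1, the regulatory subunit of the strial potassium channel, averaged 11147 in the hypoxic explants, 11761 in the normoxic explants and 52128 in native stria vascularis, while no group of the other regions averaged more than 1798. Atp1b2, a beta subunit of Na,K-ATPase, averaged 10236 in hypoxic and 7666 in normoxic explants, against at most 6888 in a group of the other regions. Atp1b1, another beta subunit, averaged 45317 in hypoxic stria vascularis, below the 81637 of hypoxic organ of Corti. Kcnj10, a potassium channel gene, averaged 542 in hypoxic stria vascularis, below the 1060 of hypoxic modiolus. The pore subunit Kcnq1 was above background in native stria vascularis, at 870, but in neither group of explants. Nefm, a neurofilament of the spiral ganglion, was not above background on any stria array, and the myelin gene Mbp only on 1 normoxic array, at 364. Other neuronal and glial markers were present. The neurofilament Nefh was above background on both arrays of each group of explants, at 626 to 1127. The glial genes S100b and Sox10 were above background on every stria array.

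Few transcripts separated the hypoxic from the normoxic explants beyond the spread of the arrays. Of 1263 probe sets tested, 3 were lower after hypoxia at an adjusted p under 0.05 (0.238% of those tested), and 0 were higher (0.0%), by limma with Benjamini-Hochberg adjustment. The 3 were Gsta1, a glutathione transferase, Prnp, the prion protein, and Ccl5, a chemokine. This model did not pair the arrays by repeat. With the scan session, which coincided with the repeat, as a term in the model, Gabbr2, B2m and Hmox1, described below, also passed as lower. At an unadjusted p under 0.05, 42 probe sets were lower (3.33%) and 21 higher (1.66%), a split that turned to 33 lower and 43 higher with each array centred on its median. Both hypoxic arrays lay below both normoxic arrays for 236 probe sets (18.7%) and above them for 192 (15.2%). An exact permutation test of 2 arrays against 2 cannot give a two-sided p below 0.333, so that the tests rest on the spread shared by all groups of the study. Differences are fitted log2 differences, hypoxia minus normoxia, with their standard errors, on the scale log2(signal + 16).

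The 2 repeats agreed little across the array as a whole. The difference in repeat 1 and that in repeat 2 correlated at r = 0.13 over all 1263 probe sets and at r = 0.29 over the 597 probe sets above background on all 4 arrays, which is a description across probe sets that share the arrays. In both repeats 24 probe sets were more than 2-fold lower and 14 more than 2-fold higher after hypoxia. Of the 1263 probe sets, 361 were above background on none of the 4 arrays.

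**Figure D1:**
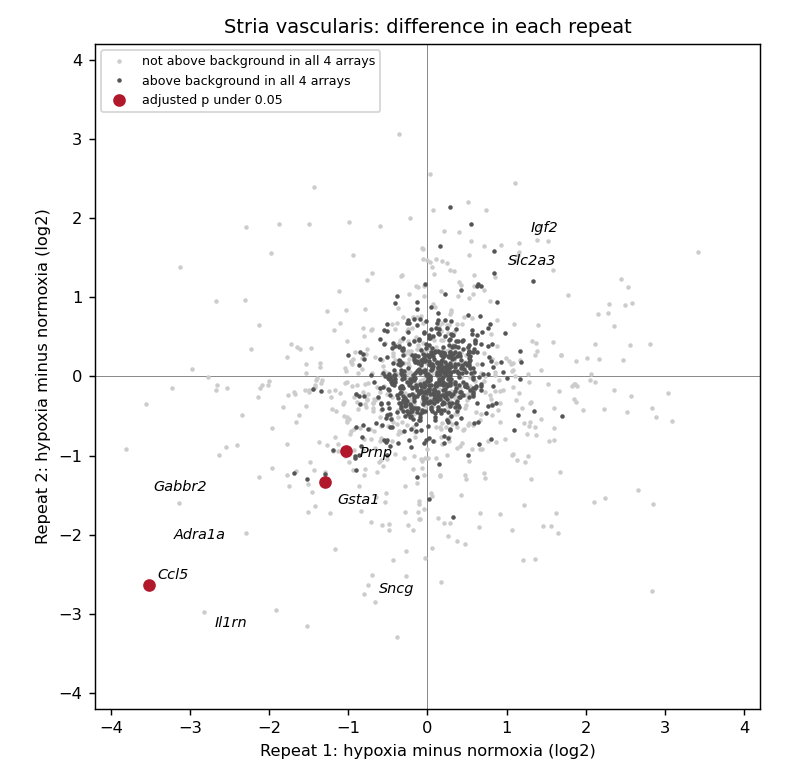
Each point is a probe set, with its log2 difference, hypoxia minus normoxia, in repeat 1 on the x axis and in repeat 2 on the y axis; dark points were above background on all 4 arrays and red points had an adjusted p under 0.05. The cloud has little slope (r = 0.13), and Ccl5, Gsta1 and Prnp lie at the lower left, below 0 in both repeats.

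Gsta1 encodes an alpha-class glutathione transferase, which joins glutathione to electrophiles and lipid peroxidation products. Its signal was 8291 and 7412 in the hypoxic explants, against 20378 and 18716 in the normoxic explants, with 1728 in native stria vascularis. Both hypoxic arrays thus lay far below both normoxic arrays and above the native one. The transcript fell by 1.32 (log2, SE 0.21, limma adjusted p = 0.034), which was 2.49-fold lower, with differences of -1.30 and -1.33 in repeats 1 and 2. With the scan session as a term in the model its adjusted p was 0.018. A second Gsta1 probe set read 9209 and 8051 in hypoxic explants and 16377 and 13748 in normoxic explants (-0.80 ± 0.22, adjusted p = 0.327). Both probe sets belong to the class that the manufacturer marks as matching several members of a gene family, so that the signal cannot be assigned to Gsta1 alone. A probe set for the related Gsta2 ran the other way, at 600 and 240 in the hypoxic explants against 41.7 and 70.0 in the normoxic explants (2.50 ± 1.05, adjusted p = 0.861), but 3 of these 4 signals were not above background.

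Prnp encodes the prion protein, a copper-binding glycoprotein anchored to the cell surface. Its signal was 4423 and 5180 in the hypoxic explants, against 9077 and 9991 in the normoxic explants, and 5071 in native stria vascularis. The groups did not overlap, and the hypoxic signals were close to the native one. It fell by 0.99 (SE 0.16, adjusted p = 0.034), or 1.99-fold, with -1.03 and -0.95 in the repeats, and the session term gave an adjusted p of 0.0096.

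Ccl5, the chemokine RANTES that attracts T cells and monocytes, read 134 and 96.4 in the hypoxic explants, against 1710 and 680 in the normoxic explants, and 74.6 in native tissue. It was above background on both normoxic arrays and on neither hypoxic nor native array. The fitted difference was -3.08 ± 0.54 (adjusted p = 0.039, and 0.018 with the session term), with -3.52 and -2.63 in the repeats. With the hypoxic signals raised to the background of their arrays, Ccl5 was at least 2.44-fold lower after hypoxia.

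These calls depended on the model. Over 16 alternative settings the adjusted p ran from 0.000467 to 0.480 for Gsta1, from 0.00537 to 0.416 for Prnp and from 0.0105 to 0.480 for Ccl5, and 8, 8 and 7 of the settings passed. The direction was the same in all 16 for each gene. Without hypoxic repeat 2, normoxic repeat 1 or normoxic repeat 2, 0 probe sets passed, and without hypoxic repeat 1 the only one was Sncg, the neuronal protein gamma-synuclein (adjusted p = 0.023).

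Promoters are shown for the called genes Prnp and Gsta1, and for B2m, the light chain of class I antigen-presenting molecules, which passed only with the session term in the model. The aim was to place motifs of the regulators named above, and of the interferon response, beside the genes. Each sequence is the 250 bases before the gene's start in RefSeq (build GRCr8), at chr3:139638826-139639075 on the plus strand, chr9:31216533-31216782 on the minus strand and chr3:129549080-129549329 on the plus strand. Of the 3 called genes, Prnp and Gsta1 were matched in the promoter table used here. Promoters were also sought for Ccl5 and for Hmox1 and Slc2a3, described below, which had no match there. Each sequence is written in the gene's own direction, with motif matches in capitals.
Prnp: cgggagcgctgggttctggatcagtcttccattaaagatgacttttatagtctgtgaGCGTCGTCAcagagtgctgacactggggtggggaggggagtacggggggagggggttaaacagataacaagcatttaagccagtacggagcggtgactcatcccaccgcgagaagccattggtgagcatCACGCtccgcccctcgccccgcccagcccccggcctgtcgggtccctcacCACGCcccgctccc
Gsta1: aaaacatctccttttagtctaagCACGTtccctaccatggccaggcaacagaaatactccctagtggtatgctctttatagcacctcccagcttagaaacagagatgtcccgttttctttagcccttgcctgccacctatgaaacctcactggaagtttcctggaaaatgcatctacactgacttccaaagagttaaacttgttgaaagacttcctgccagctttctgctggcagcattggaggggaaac
B2m: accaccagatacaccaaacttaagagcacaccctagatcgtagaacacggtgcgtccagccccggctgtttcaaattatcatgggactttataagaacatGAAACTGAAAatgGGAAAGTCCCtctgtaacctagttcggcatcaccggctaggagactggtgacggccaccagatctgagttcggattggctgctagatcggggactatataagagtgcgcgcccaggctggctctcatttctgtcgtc
Motifs were searched on both strands in 33469 windows of this length. The hypoxia response core was taken as ACGTG, found in 16.6% of windows, or GCGTG, found in 25.9%. The antioxidant response core TGACNNNGC was in 10.1%, the interferon response core, GAAA followed after any 2 bases by GAAA, in 3.41% and the NF-kappaB consensus in 3.54%. Prnp had GCGTG 64 and 14 bases before its start and the antioxidant core 193 bases before it, all on the minus strand and without overlap. Gsta1 had ACGTG 227 bases before its start, on the minus strand. B2m had the interferon core 150 bases before its start on the plus strand and the NF-kappaB consensus 137 bases before it on the minus strand. Such matches describe the letters of these windows and are not evidence of binding.

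Hmox1 and B2m passed only in some of the alternative models. Hmox1, which degrades heme to biliverdin, iron and carbon monoxide and is a target of both Hif1a and Nfe2l2, read 33307 and 30901 in the hypoxic explants, against 63064 and 62178 in the normoxic explants, and 6957 in native tissue. The groups lay apart by about the same amount in each repeat (-0.92 and -1.01). Its difference of -0.96 ± 0.18 missed the threshold (adjusted p = 0.055, and 0.012 with the session term), and a second probe set differed by -1.06 ± 0.29 (adjusted p = 0.327). Over the alternatives the adjusted p of the first ran from 0.00123 to 0.480. B2m read 35109 and 35072 in hypoxic explants, against 59080 and 55552 in normoxic explants (-0.71 ± 0.17, adjusted p = 0.179). With the session term its adjusted p was 0.023, within a range of 0.0102 to 0.885 over the alternatives.

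**Figure D2:**
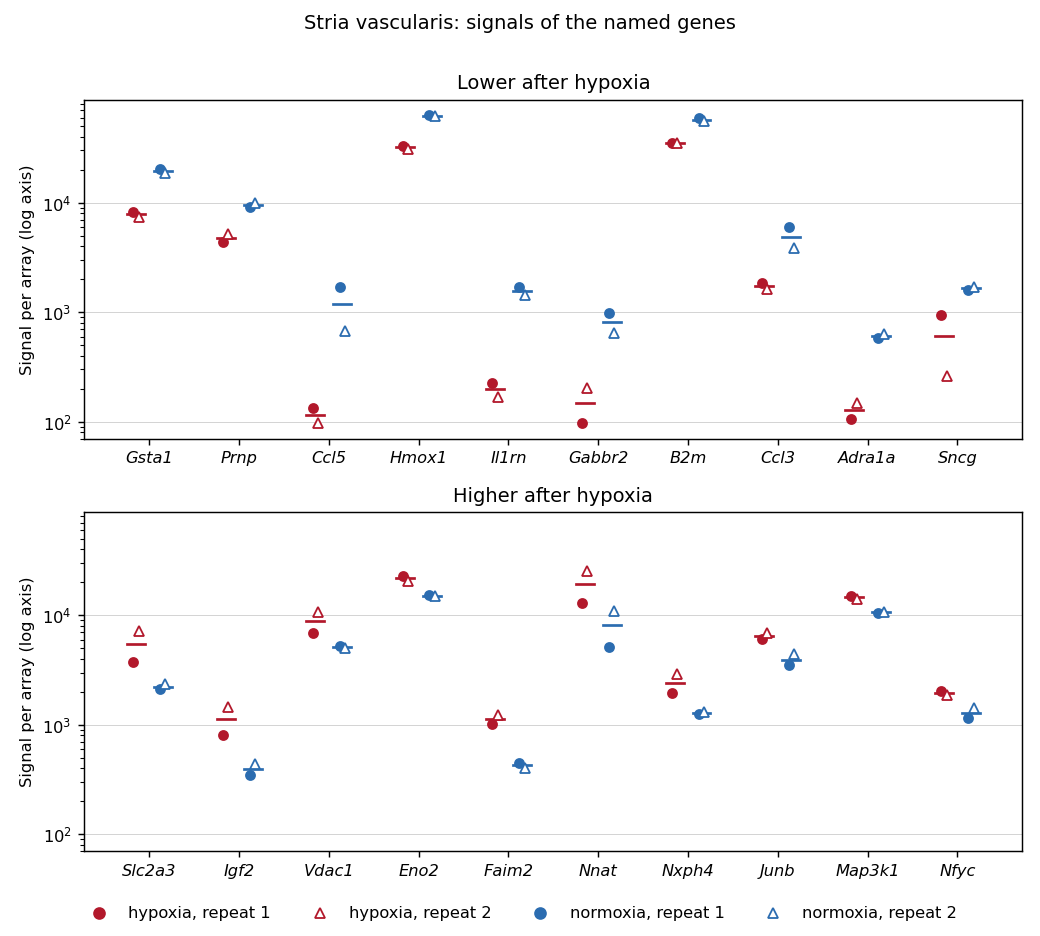
Signal of each of the 4 arrays (log axis) for the 10 genes of smallest p in each direction, hypoxia in red and normoxia in blue, filled circles for repeat 1, open triangles for repeat 2 and a bar at the mean. The arrays of the groups do not overlap for any of these 20 genes, which were chosen by their p and by the same sign in both repeats; of them Gsta1, Prnp and Ccl5 had an adjusted p under 0.05.

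Of 54 listed genes of inflammation and injury, 32 were measured, of which 1, Ccl5, fell at the threshold and 0 rose. Both hypoxic arrays were below both normoxic arrays for 14 of the 32 (43.8%) and above them for 4 (12.5%), where 20.1% and 15.6% of all 720 genes on the array were so placed. With each array centred on its median these counts were 13 and 5 of the 32, and for all genes they turned from 145 below and 112 above to 107 below and 172 above. The median difference was -0.22 over the list and -0.01 over all genes. It was -0.13 with each array centred on its median and -0.21 after quantile normalization. Signals summed over the list were 206178 and 208450 in the hypoxic explants and 246954 and 246259 in the normoxic explants, so that both hypoxic sums were lower. Such sums rest mostly on bright genes. Most of this difference came from B2m, with means of 35090 in hypoxic and 57316 in normoxic explants, and Ccl2, with 28570 and 41054. The bright genes Icam1 and C3, given below, were higher in hypoxic explants. In bulk tissue, fewer cells of a type and less RNA per cell cannot be told apart.

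Among the chemokines, which recruit leukocytes, Ccl3 read 1831 and 1636 in hypoxic explants and 5949 and 3830 in normoxic explants (-1.46 ± 0.34, adjusted p = 0.179), with 103 in native tissue. Cxcl2, a neutrophil attractant, read 1452 and 915, against 3593 and 2166 in normoxic explants (-1.26 ± 0.50, adjusted p = 0.810). For the monocyte attractant Ccl2 the values were 32171 and 24969, against 46296 and 35812 in normoxic explants (-0.52 ± 0.29, adjusted p = 0.872). The normoxic signals of these 3 chemokines were the higher ones in each repeat. Ccl20 and Cx3cl1, in contrast, had overlapping arrays and differences of 0.23 ± 0.29 and 0.23 ± 0.26.

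Members of the interleukin-1 family were measured as well. Il1rn, the secreted antagonist of the interleukin-1 receptor, read 226 and 168 in the hypoxic explants, against 1693 and 1441 in the normoxic explants (-2.90 ± 0.61, adjusted p = 0.112). It was not above background on either hypoxic array, and was at least 3.51-fold lower there. The agonist Il1b read 3184 and 1421 in hypoxic explants and 5956 and 3240 in normoxic explants (-1.04 ± 0.42, adjusted p = 0.861), and its second probe set differed by -1.41 ± 0.40 (adjusted p = 0.340). Il1a, the other agonist, read 344 and 52.7, neither above background, against 1334 and 514 in normoxic explants, and was at least 1.88-fold lower after hypoxia (adjusted p = 0.861). Thus both agonists and the antagonist were lower on the hypoxic arrays. Il6, a further cytokine, had 493 and 70.5 in hypoxic explants, again not above background, and 873 and 568 in normoxic explants, at least 1.60-fold lower (adjusted p = 0.872). In the limma model of only the 4 stria arrays with the session term, Il1rn, Ccl3, Cxcl2 and both probe sets of Il1b passed (adjusted p = 0.00293 to 0.0161). That model leaves almost no residual degrees of freedom, so that its p-values rest mostly on the spread pooled over probe sets. Leaving out single arrays moved the first Il1b difference between -1.62 (without hypoxic repeat 1) and -0.46 (without hypoxic repeat 2).

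Some other members of the list had overlapping arrays or slightly higher signals. Icam1, the endothelial adhesion molecule, read 20755 and 21759 in hypoxic explants and 15356 and 19620 in normoxic explants (0.29 ± 0.17). Complement C3 read 20436 and 22361, against 17041 and 18698 in normoxic explants (0.26 ± 0.31), and Ptgs2, the inducible cyclooxygenase, 2307 and 2752 against 1978 and 1678 (0.46 ± 0.30). None of these 3 passed (adjusted p = 0.872 to 0.980). Not all remaining members were so placed. Vcam1, another adhesion molecule, was lower without overlap, at 3646 and 4278 in hypoxic explants against 4890 and 4622 in normoxic explants (-0.27 ± 0.24). The acute-phase regulators Cebpb and Stat3 differed by -0.03 ± 0.20 and -0.11 ± 0.21, and Tnf was not above background on any of the 4 arrays. Of 19 listed markers of macrophages and leukocytes only Itgam was measured, at 151 and 178 in hypoxic explants and 329 and 258 in normoxic explants, none above background. The part of such cells in the lower cytokine signals was not tested.

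Nos2, the inducible nitric oxide synthase, gave contradictory signals. Its brightest probe set read 1319 and 1556 in hypoxic explants, against 315 and 1317 in normoxic explants (1.13 ± 0.52, adjusted p = 0.872), with differences of 2.01 in repeat 1 and 0.24 in repeat 2. The normoxic signal of 315 in repeat 1 was not above background. All 6 other probe sets for Nos2 differed the other way, by -0.23 to -0.66. The second brightest read 2019 and 2284 in hypoxic explants and 2870 and 4009 in normoxic explants. No direction can therefore be given for this gene.

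**Figure D3:**
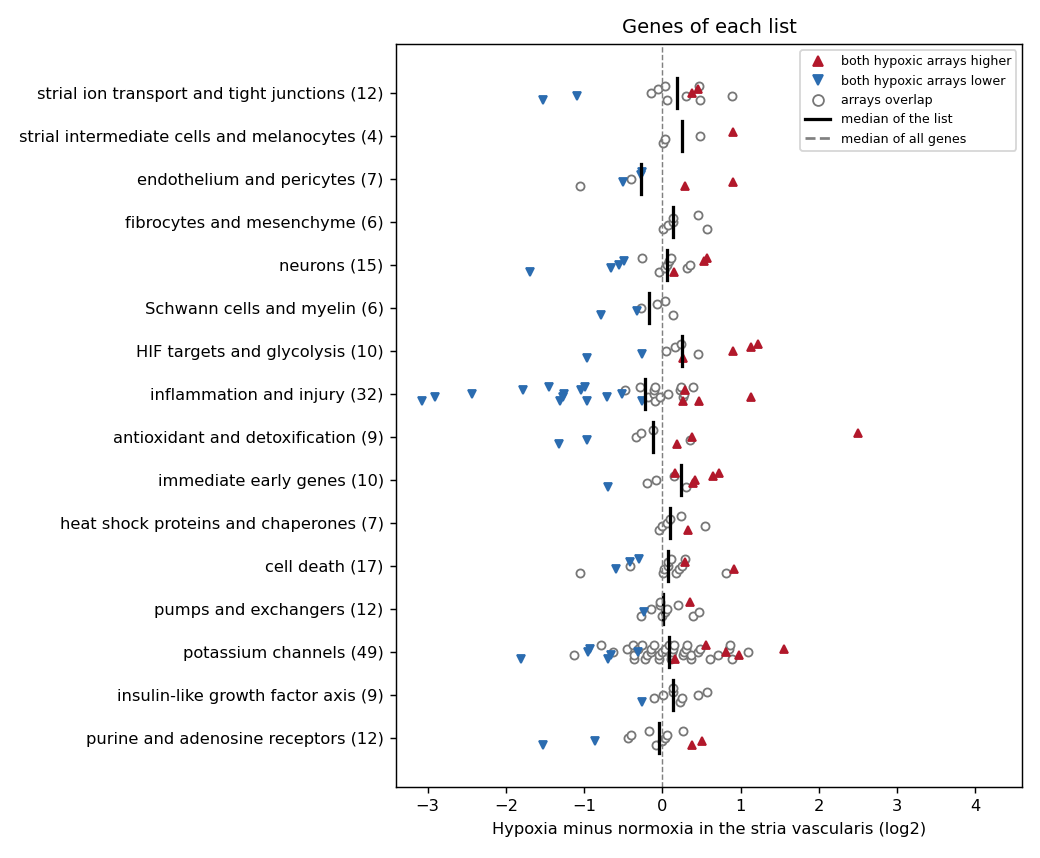
Each symbol is a gene of a list with at least 4 measured genes (number measured in parentheses), placed by its log2 difference, hypoxia minus normoxia; upward and downward triangles mark genes whose 2 hypoxic arrays were both above or both below the normoxic ones. The list of inflammation and injury reaches furthest to the left, with 14 downward triangles among 32 genes, and the black median bars of all lists, its own at -0.22 included, lie between -0.27 and 0.25.

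Genes of the hypoxia response were measured in small number. Of 39 listed Hif1a targets and glycolytic genes 10 were on the array, and none rose or fell at the threshold. Their median difference was 0.25. Without overlap 4 were above and 2 below, where 15.6% and 20.1% of all genes were so placed. The 4 above included Nos2, whose probe sets disagreed, and Edn1, which was not above background in normoxic explants. The 2 below included Hmox1. After centring 3 were above and 1 below, against 172 above and 107 below of all 720 genes. Slc2a3, the high-affinity glucose transporter GLUT3, was the nearest to a call among all higher genes. It read 3777 and 7178 in hypoxic explants, against 2103 and 2373 in normoxic explants and 1132 in native tissue, and both hypoxic arrays were above both normoxic ones. The difference was 1.22 ± 0.30 (adjusted p = 0.189), with 0.84 and 1.59 in the repeats, and the second probe set gave 1.24 ± 0.72. Over the alternatives its adjusted p ran from 0.0102 to 0.902, and it passed in 1 of 16, the model of only the 4 stria arrays with the session term.

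The other members named from this group did not pass. Slc2a1, the transporter GLUT1, read 63579 and 88367 in hypoxic explants and 75197 and 60041 in normoxic explants (0.16 ± 0.33). Hif1a itself read 7895 and 8512, against 9321 and 5173 in normoxic explants (0.24 ± 0.26). Arrays of both genes overlapped between the groups, and each difference was within its standard error. Tfrc, the transferrin receptor, read 2698 and 2536, against 2232 and 2115 in normoxic explants (0.27 ± 0.30), and Igfbp3, which binds insulin-like growth factors, 29608 and 41300 against 21739 and 30122 (0.45 ± 0.25). Edn1, the vasoconstrictor endothelin 1, read 675 and 482 in hypoxic explants and, not above background, 251 and 355 in normoxic explants, at least 1.47-fold higher (adjusted p = 0.872). The adjusted p of the other 4 lay between 0.872 and 0.999.

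Other genes on the higher side were of mixed function, and none passed in the main model. Eno2, the neuronal form of the glycolytic enzyme enolase, read 23095 and 20760 in hypoxic explants and 15239 and 15115 in normoxic explants (0.53 ± 0.16, adjusted p = 0.425). Vdac1, the main channel of the outer mitochondrial membrane, read 6956 and 10735, against 5198 and 5032 in normoxic explants (0.75 ± 0.23, adjusted p = 0.398), and its second probe set had the same sign. Nnat, an imprinted proteolipid gene of developing tissues, read 13096 and 25380, against 5188 and 10969 in normoxic explants (1.27 ± 0.43, adjusted p = 0.581). For Nnat the arrays of the groups were close, since hypoxic repeat 1 and normoxic repeat 2 differed little, although the repeats gave 1.33 and 1.21, and without normoxic repeat 1 the difference was 0.73. Among the alternatives Nnat passed only in the limma model of the 4 stria arrays with the session term (adjusted p = 0.000467). Faim2, an inhibitor of Fas-induced apoptosis, read 1026 and 1229, against 451 and 404 in normoxic explants (1.36 ± 0.46, adjusted p = 0.581). The signal of 404 was not above background. Nxph4, a neurexophilin, differed by 0.89 ± 0.31, Map3k1, a kinase upstream of Jun kinase, by 0.46 ± 0.19, and Nfyc, a subunit of a CCAAT-binding factor, by 0.61 ± 0.25 (adjusted p = 0.608 to 0.861). The growth factor Igf2 depended on the probe set. One set read 801 and 1443 in hypoxic explants and 349 and 437 in normoxic explants (1.43 ± 0.40, adjusted p = 0.340), the brightest differed by 0.57 ± 0.31, and 2 of the other 4 differed in the opposite direction. The signal of 349 was not above background.

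Of 9 measured genes of antioxidant defence and detoxification, 1, Gsta1, fell at the threshold and 0 rose, with a median of -0.12. Over all 720 genes 3 fell and 0 rose. Both hypoxic arrays were above both normoxic arrays for 3 of the 9 (33.3%) and below them for 2 (22.2%). Of all genes 15.6% were above and 20.1% below. After centring 3 of the 9 were above and 3 below, against 172 above and 107 below of all genes. Beside Gsta1 and Hmox1, the metal-binding metallothioneins did not pass, with Mt1 at 180745 and 128786 in hypoxic explants and 124402 and 111557 in normoxic explants (0.37 ± 0.23), and Mt2A at 168918 and 146910 against 140324 and 136570 (0.19 ± 0.17). After quantile normalization the difference of Mt2A turned to -0.12. The superoxide dismutases Sod1, Sod2 and Sod3 differed by -0.12 ± 0.19, 0.35 ± 0.65 and -0.27 ± 0.38, with overlapping arrays.

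Immediate early genes, the first transcription factors switched on by stimuli, had a median of 0.23 over 10 measured genes, of which none passed. Without overlap 5 were above and 1 below (over all 720 genes 15.6% were above and 20.1% below). After centring these counts were again 5 and 1, against 172 above and 107 below of all 720 genes. Junb, a component of the AP-1 factor, read 6049 and 6956 in hypoxic explants, against 3492 and 4392 in normoxic explants (0.73 ± 0.26, adjusted p = 0.662). Jun read 3229 and 2987, against 2631 and 2061 in normoxic explants (0.41 ± 0.24), and Fos 8325 and 8070 against 7368 and 7243 (0.17 ± 0.21). Fosl2 differed by 0.64 ± 0.34 and Nr4a1 by 0.40 ± 0.24, while Fosl1 was lower at 388 and 450 in hypoxic explants, against 820 and 570 in normoxic explants (-0.69 ± 0.54). The adjusted p of these 5 lay between 0.872 and 0.990.

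No gene of the transport machinery of the stria vascularis passed the test. Of 31 listed genes of strial ion transport and tight junctions 12 were measured, with 2 above and 2 below (16.7% each way, near the 15.6% and 20.1% of all genes) and a median difference of 0.18, and none had an unadjusted p under 0.05. After centring 3 of the 12 were above and 2 below, against 172 above and 107 below of all 720 genes. Kcne1 read 14980 and 7314 in hypoxic explants and 13685 and 9837 in normoxic explants (-0.15 ± 0.53), so that each group spanned the mean of the other. The beta subunits of Na,K-ATPase, Atp1b1 and Atp1b2, differed by 0.06 ± 0.31 and 0.47 ± 0.33. Kcnq1 was at background in both groups (0.31 ± 0.56). The receptors Adora1, for adenosine, and Adrb1, for catecholamines, were the 2 lower members. Adora1 read 197 and 98.4 in hypoxic explants, against 554 and 339 in normoxic explants. Adrb1 read 224 and 188, against 360 and 573 in normoxic explants. Neither was above background on a hypoxic array, and Adora1 was so on only 1 normoxic array, so that no fold is given for it. Adrb1 was at least 1.05-fold lower (adjusted p = 0.872 for both).

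No marker of the cells that strial explants can hold passed the test, and their counts without overlap stand against 15.6% of all genes above and 20.1% below. Fibrocytes and mesenchyme had 6 measured genes of 17 listed, with none separated as deposited and a median of 0.13. After centring, against 172 above and 107 below of all 720 genes, 2 of these 6 were above and 0 below. Their summed signals were 168684 and 220474 in hypoxic explants and 154164 and 174517 in normoxic explants. Intermediate cells and melanocytes had 4 of 13, with 1 above and a median of 0.25. The sums of this list were 3246 and 3644 in hypoxic and 2640 and 3551 in normoxic explants. Endothelium and pericytes had 7 of 24, with 2 above and 3 below and a median of -0.27. After centring 2 were above and 0 below, against 172 above and 107 below of all 720 genes. The sums of this list were 27142 and 29535 in hypoxic and 23653 and 27742 in normoxic explants. Calcrl, the endothelial receptor of calcitonin gene-related peptide and adrenomedullin, differed by -0.27 ± 0.29. Schwann cell and myelin genes had 6 of 14 measured, with 2 below, and sums of 17081 and 15641 in hypoxic explants and 15969 and 19628 in normoxic explants. Centring left 1 of these genes above and 1 below. None of these lists had a gene at an unadjusted p under 0.05, and of the hair cell and supporting cell markers 2 of 25 and of the red cell markers 0 of 9 were measured.

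Neuronal genes, of which 15 were measured, had a median of 0.05 with 3 above (20.0%) and 4 below (26.7%), near the 15.6% and 20.1% of all genes. The 3 above included Eno2 (0.53 ± 0.16), described before, and the neurofilament Nefl. Nefl read 403 and 413 in hypoxic explants, against 183 and 392 in normoxic explants (0.57 ± 0.34), and was above background on only 1 hypoxic array. Sncg read 941 and 261 in hypoxic explants, against 1594 and 1711 in normoxic explants (-1.70 ± 0.46, adjusted p = 0.327), and its lower hypoxic array, repeat 2, was not above background. Map2, a microtubule protein of dendrites, read 1150 and 928, against 1595 and 1450 in normoxic explants (-0.55 ± 0.25, adjusted p = 0.872). Gabbr2 and Adra1a were named by their p and were not on this list. Gabbr2, a subunit of the GABA-B receptor, read 97.9 and 201 in hypoxic explants, not above background, against 987 and 644 in normoxic explants (-2.37 ± 0.51, adjusted p = 0.118), at least 1.81-fold lower. With the session term its adjusted p was 0.049, within 0.0486 to 0.773 over the alternatives. Its 2 other probe sets differed by 0.27 ± 1.04 and 1.61 ± 0.91, in the opposite direction. Adra1a, an alpha-1 adrenergic receptor, read 107 and 149, not above background, against 587 and 637 in normoxic explants (-2.14 ± 0.53, adjusted p = 0.189), at least 1.40-fold lower.

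Heat shock, cell death and growth factor genes held no calls. Over 7 chaperones the median was 0.10, and Hspa1a, the inducible heat shock protein, read 6674 and 6256 in hypoxic explants and 7269 and 5250 in normoxic explants (0.07 ± 0.34). Over 17 cell death genes the median was 0.07. The pro-apoptotic Bax read 12039 and 10970, against 13957 and 14454 in normoxic explants (-0.31 ± 0.18, adjusted p = 0.872), while its antagonist Bcl2 differed by 0.07 ± 0.46. Casp1, which activates interleukin 1 beta, read 1562 and 1333, against 2826 and 1696 in normoxic explants (-0.60 ± 0.44, adjusted p = 0.958). The medians were 0.01 over 12 pumps and exchangers, 0.08 over 49 potassium channels, 0.14 over 9 genes of the insulin-like growth factor axis and -0.05 over 12 purine receptors and enzymes. In these 4 groups the lowest adjusted p was that of the channel gene Kcnh6, at 380 and 401 in hypoxic explants and 135 and 111 in normoxic explants (1.55 ± 0.48, adjusted p = 0.425), with the normoxic arrays and 1 hypoxic array not above background.

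Whether the response of the stria vascularis differed from that of the other regions was tested directly, as its hypoxia effect minus the mean effect in modiolus and organ of Corti. No probe set of 1263 passed in limma (0 called, 0.0%), with a smallest adjusted p of 0.190. At an unadjusted p under 0.05, 47 probe sets had a lower (3.72%) and 17 a higher difference (1.35%). The split was 24 lower and 57 higher with each array centred on its median, and 29 and 30 after quantile normalization. The median of this difference over all probe sets was -0.11 as deposited, 0.13 after centring and 0.01 after quantile normalization, so that the balance between lower and higher depends on the scaling.

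Prnp came closest to such a call. In the organ of Corti it read 10819 and 11118 after hypoxia, against 9574 and 12087 in normoxia, and in the modiolus 17545 and 17458 after hypoxia, against 15861 and 17396 in normoxia. The effects were 0.03 ± 0.16 and 0.08 ± 0.16 there, against -0.99 in the stria vascularis, a difference of -1.04 ± 0.20 (adjusted p = 0.190). With the session term the adjusted p was 0.040, and over 22 alternatives it ran from 0.0396 to 0.695. Ccl5 was above background in no array of the other regions, where its signals ran from 89.0 to 153, and its difference of -3.24 ± 0.66 had the same adjusted p of 0.190. The normoxic stria arrays were therefore the only 2 of the 16 on which Ccl5 was above background. For Adra1a the effects were 1.42 ± 0.53 in organ of Corti and 0.41 ± 0.53 in modiolus, and the difference was -3.06 ± 0.64 (adjusted p = 0.190).

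Gsta1 and Hmox1 had smaller differences in the other regions, none of which passed. Gsta1 read 4339 and 3826 after hypoxia, against 4067 and 6270 in normoxia, in the organ of Corti, and 10117 and 8910 after hypoxia, against 11224 and 12189 in normoxia, in the modiolus. The effects there were -0.31 ± 0.21 and -0.30 ± 0.21, and the difference to the stria vascularis was -1.01 ± 0.26 (adjusted p = 0.575). For Hmox1 the effects were -0.24 ± 0.18 and -0.44 ± 0.18, and the difference was -0.63 ± 0.22 (adjusted p = 0.770). The receptor gene Drd4 had a difference of -2.81 ± 0.67 (adjusted p = 0.356), with 297 and 210 in hypoxic stria vascularis, not above background, against 687 and 1004 in normoxic stria vascularis. Its effect was -1.67 in the stria vascularis, so that part of the difference came from higher signals after hypoxia in the organ of Corti (0.872) and the modiolus (1.415). On the higher side, the differences were 1.82 ± 0.49 for the Igf2 probe set described above, 0.65 ± 0.20 for Eno2, 1.43 ± 0.56 for Faim2, 1.37 ± 0.53 for Nnat and 0.59 ± 0.23 for Tubb5, a tubulin (adjusted p = 0.619 to 0.871). Slc2a3 was higher in all 3 regions, by 0.37 ± 0.30 in organ of Corti and 0.37 ± 0.30 in modiolus. The test of its larger difference in the stria vascularis did not pass (0.84 ± 0.37, adjusted p = 0.871). No gene named here passed in the organ of Corti or, Nos2 aside, in the modiolus, and a difference between regions rests on its own test.

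**Figure D4:**
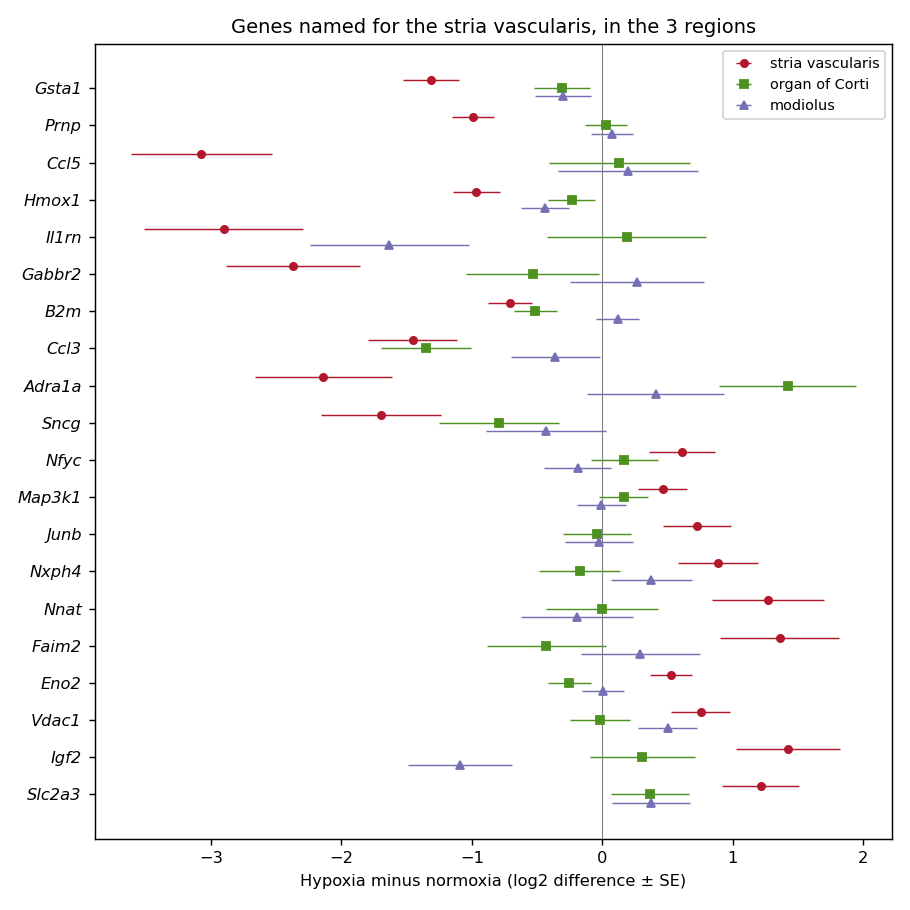
Log2 difference, hypoxia minus normoxia, with its standard error, in the stria vascularis (red circles), organ of Corti (green squares) and modiolus (purple triangles) for the 20 genes named by their p in the stria vascularis. Since the genes were chosen in the stria vascularis, its larger differences are partly set by that choice; Prnp lies at -0.99 there and at 0.03 and 0.08 in the other regions.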

How the data were processed

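The deposited intensity values, 1 for each of 1322 probe sets of the Affymetrix Rat Neurobiology U34 array, were linear and not logged. Every array had the same 2% trimmed mean, a scaling made by the authors before deposit, and the summary software is not given in the sources used here. Run records, also deposited, hold other entries, from which the chip type and scan session were taken. By those records the repeat number of a culture coincided with its scan session.

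The 59 control probe sets were left out and the values turned to log2(value + 16) with no further scaling. Of the remaining 1263 probe sets, 1137 carried 1 gene symbol, 8 several and 118 none, and 1132 were matched to a current RefSeq gene table by gene number. In lists each of 720 genes was represented by the probe set of highest mean. An array's background was the 95th percentile of its 23 controls for foreign sequences, and a group was called not above background when none of its arrays exceeded it. An at-least fold has such signals raised to that percentile.

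One linear model held all 16 arrays, with 1 mean for each of 9 groups, 7 residual degrees of freedom and a variance trend (limma 3.58.1 and statmod 1.5.0 in R 4.3.3). Tests were two-sided, and p-values were adjusted by Benjamini and Hochberg's method across all 1263 probe sets, with a threshold of 0.05. Tested on simulated data (10 simulations, 200 of 1263 probe sets changed), the comparison of hypoxic with normoxic stria vascularis recovered 29.3% of 2-fold, 70.9% of 4-fold and 92.1% of 8-fold changes, and 4.77% of its calls were false. The simulated errors were independent and normal, with the fitted spread and no session effect. Far fewer probe sets were called in the data than were changed there, so these shares hold only for the simulated setting.

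The genes named were all that passed, the 10 of smallest p each way (5 for the difference between regions) with 1 symbol, the same sign in both repeats and the higher group above background, up to 4 members of each of 19 lists, and 25 genes whatever their value, 23 of them measured. C3, Ccl20, Cebpb, Cx3cl1, Cxcl2, Fosl1, Il1a, Il6, Nefm, Ptgs2, Stat3, Tnf and the superoxide dismutases were added after their values were seen. Members and lists were chosen with earlier results of these data known. Alternatives were other pseudocounts and scalings, leaving out dim probe sets, dropping the variance trend, weighting arrays, the session as a term or random block, models of fewer arrays, and the removal of each array in turn.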

Additional observations from a re-analysis of the deposited data

How the results depend on the processing

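The count of 3 lower probe sets became 2 to 4 with pseudocounts of 1 or 100, quantile normalization, the filter on dim probe sets (972 tested), array weights and the session as a random block. It was 0 with each array centred on its median, 1 without the variance trend, 0 in the model of the 12 cultured arrays, where Gsta1, Prnp and Ccl5 had an adjusted p of 0.073, and 0 in that of the 4 stria arrays, where Gsta1 had 0.22. The cause was not tested. Leaving out each stria array in turn gave 0 to 1. For the difference between regions leaving out each array also gave 0 to 1, the 1 being P2rx2 without normoxic modiolus repeat 1 (-1.74, limma adjusted p = 0.026), a gene named after its value was seen. The other settings gave 0, except the session term.

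With the replicate block, the repeat number as a term, 6 probe sets were lower (Gabbr2, Prnp, Ccl5, B2m, Hmox1 and Gsta1) and the difference between regions had 1 call, Prnp. In the 4 stria arrays alone with the block 14 passed, 2 of them higher (Slc2a3 and Nnat) and 12 lower (both probe sets of Gsta1, Hmox1 and Il1b, and Prnp, Ccl5, Il1rn, B2m, Ccl3 and Cxcl2). Since the model of these 4 arrays with the block leaves almost no residual degrees of freedom, its p-values rest mostly on the spread pooled over probe sets. As a check of the pairing, residuals of arrays with the same number correlated at -0.01 to 0.28 over 15 pairs of groups, 10 of them above 0.1, and at 0.22 for hypoxic with normoxic stria vascularis. Not every pair exceeded 0.1, and the labels name no shared litter or culture, but the number coincided with the scan session, so that results whose call the session term changes are given with it.

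Among 76 results for single genes, 4 turned direction under another scaling: Mt2A to -0.12, Hspa1a to -0.039 and Sod1 to 0.072 after quantile normalization, and Cebpb to 0.067 after centring. Leaving out single arrays gave differences on both sides of 0 for these genes: -0.24 to 0.36 for Atp1b1, -0.071 to 1.00 for Atp1b2, -0.17 to 0.32 for Bcl2, -0.020 to 0.47 for Ccl20, -0.21 to 0.14 for Cebpb, -0.070 to 0.54 for Cx3cl1, -0.19 to 0.66 for Hif1a, -0.17 to 0.30 for Hspa1a, -0.66 to 0.37 for Kcne1, -0.44 to 1.05 for Kcnq1, -0.080 to 0.40 for Slc2a1, -0.35 to 0.11 for Sod1, -0.52 to 1.21 for Sod2, -0.72 to 0.18 for Sod3 and -0.22 to 0.012 for Stat3. Signals near background, as for Ccl5, Il1rn, Gabbr2 and Adra1a after hypoxia, bound the folds only from below. Without hypoxic repeat 2 the differences were 0.75 for Slc2a3, 0.44 for Vdac1 and -0.80 for Sncg.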
